A study of Caenorhabditis elegans with 95 samples.

Results

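The F-box genes described here belong to the *fbxa*, *fbxb* and *fbxc* subfamilies of *Caenorhabditis elegans*. They were taken as the probe sets whose annotation gives a single gene symbol made of one of these names and a number, without use of the measured values. The rule found 317 probe sets for 310 genes among 22548 probe sets in all, of which 175 were *fbxa*, 96 were *fbxb* and 46 were *fbxc*. All 317 matched a gene of the same symbol in RefSeq, and 49 of them are annotated as pseudogenes. The animals were wild-type Bristol N2 adults grown on *E. coli* HB101 and moved to FUDR, which blocks production of progeny, and RNA came from whole animals. In LD, animals were held in alternating light and darkness at 18°C (18 arrays, series 3, 4 and 6), and DD is the following day in constant darkness (18 arrays, series 2, 4 and 6). In WC, animals were held in darkness at alternately 25°C and 15°C (30 arrays, series 1, 2, 3, 4 and 6), and CC is the following day at constant 15°C (18 arrays, series 3, 4 and 6). Non-entrained controls were kept in complete darkness (11 arrays, series 4 and 6). Animals were sampled at hours 2, 6, 10, 14, 18 and 22, where hours 2 to 10 are the light or warm phase, or its continuation in the animals' subjective time, and hours 14 to 22 are the dark or cold phase. Each array is a population, and populations under opposing cycles in different incubators were used, so that hours 2 to 10 and hours 14 to 22 may come from different animals. Standard errors and p values measure the spread of single arrays that is left after terms for hour and time series. They do not measure how far a difference varies between series, and the n beside them is only the number of series. The spread of arrays cannot be told apart from the spread between such populations.

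F-box proteins are the subunits by which SCF ubiquitin ligases pick their substrates. The F-box binds a Skp1-related adaptor (an SKR protein in *C. elegans*), the adaptor binds a cullin, and the complex passes ubiquitin to the bound substrate, which is usually then degraded. *C. elegans* holds an exceptionally large, fast-evolving F-box family arranged in tandem groups, and most of its members have no known substrate. FBXA-75 and FBXA-158 are known to work with CUL-6 and the adaptors SKR-3, SKR-4 and SKR-5 in the intracellular pathogen response, a programme induced by microsporidia, viruses and heat.

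The deposited values are scores, not levels. A score is the deviation of a probe set from its own mean over a time series, in units of the SD of all probe sets on that array, so a difference of 1 is 1 array SD and no fold change can be had. Probe sets without signal, or whose level hardly changes, share nearly 1 score on an array, called the floor here. A probe set was tested in a condition where its root mean square distance from the floor was above 0.1. Of the F-box probe sets, 219 passed for LD and 231 for DD. For the temperature experiment 240 passed in WC and 236 in CC, and 219 did among the controls. Of the 317, 194 passed in all 5 conditions and 53 in none. In WC, 85.4% of *fbxb*, 78.3% of *fbxc* and 69.7% of *fbxa* probe sets passed, against 76.9% of all probe sets. The median distance of F-box probe sets from the floor was 1.05 in WC and 0.88 in LD, against 0.60 in WC and 0.49 in LD over all probe sets. The members that departed farthest from the floor over all conditions were *fbxb-49* (3.65), *fbxb-74* (3.03), *fbxc-39* (2.90), *fbxa-72* (2.88), *fbxc-14* (2.87) and *fbxb-101* (2.81).

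In LD, called F-box genes of the *fbxa* subfamily were mostly higher in light, and those of the other subfamilies were all lower in light. In the light-minus-dark difference (mean of hours 2, 6 and 10 minus mean of hours 14, 18 and 22, limma, adjusted p under 0.05 over 15989 probe sets), 12 F-box probe sets were higher in light, where 6.24% of all probe sets were called higher, and 9 were lower, where 5.26% were called lower. Either way, 21 of the 219 tested F-box probe sets were called, where 11.5% of all were. Of 112 *fbxa* probe sets, 12 were higher (10.7%) and 2 lower (1.79%). Of 75 *fbxb* probe sets, 0 were higher and 5 lower (6.67%), and of 32 *fbxc* probe sets, 0 were higher and 2 lower (6.25%). The median difference was 0.34 for *fbxa*, -0.78 for *fbxb* and -0.52 for *fbxc*, beside -0.07 over all probe sets. The sign was positive in 73 of 112 *fbxa*, 9 of 75 *fbxb* and 8 of 32 *fbxc* probe sets, beside 43.9% of all probe sets.

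**Figure D1:**
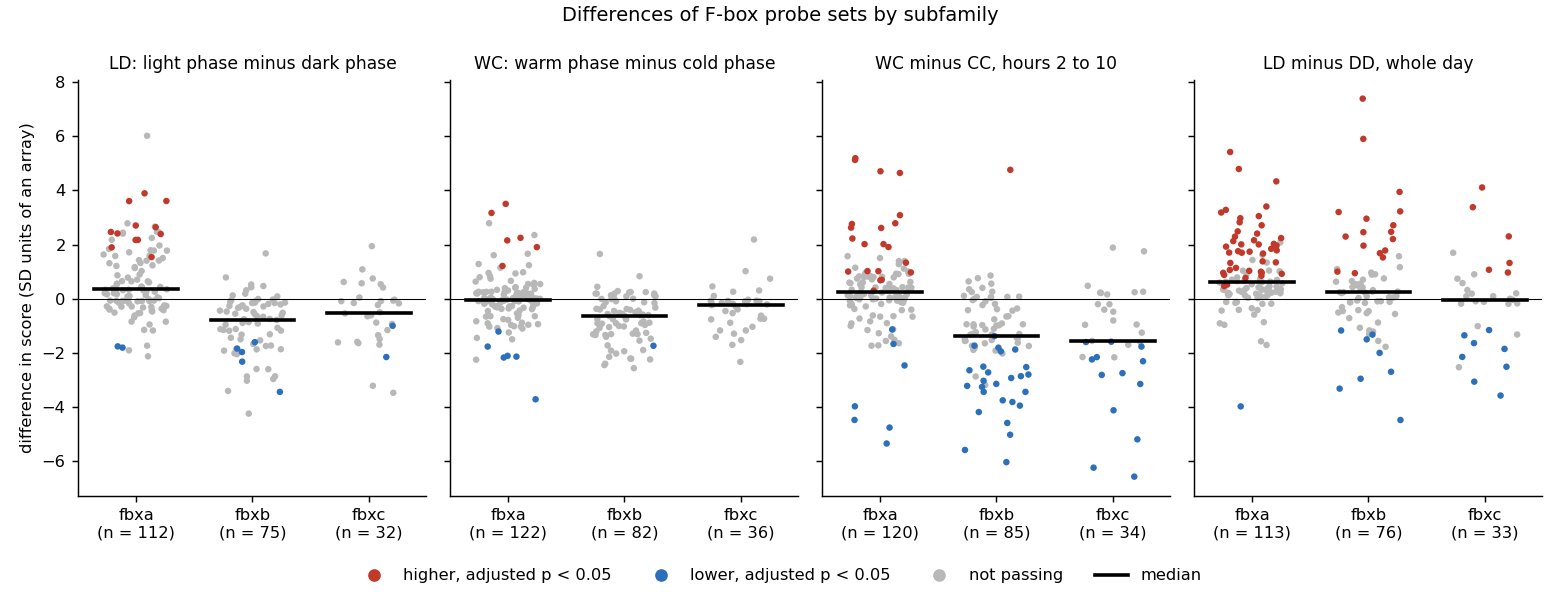
Difference in score (array SD units, vertical axis) of each tested F-box probe set by subfamily, for light minus dark phase in LD, warm minus cold phase in WC, WC minus CC at hours 2 to 10 and LD minus DD over the day. Red and blue points passed an adjusted p under 0.05 and black bars are medians, which for *fbxa* lie at 0.34 in LD and for *fbxb* at -1.38 in WC minus CC at hours 2 to 10.

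*fbxa-128* had the lowest p of the F-box genes in LD. Its 9 light-phase scores ran between 0.56 and 1.84 with a median of 0.88, and its 9 dark-phase scores between -1.81 and 0.80 with a median of -0.71. The groups overlapped through the highest dark-phase array alone, which was hour 14 of series 4, and the difference was 1.54 ± 0.29 (SE, n = 3 series, limma, adjusted p = 0.0172). *fbxa-79* had a light-phase median of 2.15 and a dark-phase median of -0.34, and rose by 2.70 ± 0.55 in light (adjusted p = 0.0220). *fbxa-105* rose by 2.64 ± 0.57 in light (adjusted p = 0.0235) and *fbxa-51* by 2.41 ± 0.53 (adjusted p = 0.0235). In each of these genes, all 3 series had the same sign. Series 3 had the widest difference of the 3 series in each of them: for *fbxa-105*, it was 4.99 in series 3, 1.46 in series 4 and 1.47 in series 6. *fbxa-57*, a pseudogene read by a probe set of type _x_at, which can also bind related transcripts, rose by 2.17 ± 0.54.

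Among the genes that fell in light, *fbxb-103* had light-phase scores between -5.72 and -0.25 (median -3.05) and dark-phase scores between -4.21 and 5.64 (median -0.10), a difference of -3.44 ± 0.87 (SE, n = 3 series, limma, adjusted p = 0.0339). The groups overlapped, and the lowest dark-phase score was that of series 4 at hour 14. *fbxb-61* differed by -1.60 ± 0.37, with -1.63, -1.34 and -1.83 in series 3, 4 and 6. *fbxc-18* differed by -2.15 ± 0.50 and *fbxb-41* by -1.97 ± 0.49. *fbxa-192*, 1 of the 2 *fbxa* genes that fell, differed by -1.80 ± 0.47 (adjusted p = 0.0353).

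The LD calls rested most on series 3 and series 6. Without series 3 or without series 6 no F-box probe set was called (0 in each case, with 19 and 0 called over all probe sets), and without series 4, 7 were called, all higher. The subfamily medians also differed between series: for *fbxa* they were 0.99, 0.15 and -0.0038 in series 3, 4 and 6. In the same order they were -0.11, -0.68 and -1.31 for *fbxb*, and -0.90, -0.50 and -0.03 for *fbxc*. Only the signs for *fbxb* and *fbxc* held in all 3 series. Markers of zygotic embryos (genes first transcribed in early embryos, such as *vet-1* and *pes-10*) also had negative medians in all 3 series. They fell most in series 3, where *fbxc* also fell most and *fbxb* fell least. Of 12 such probe sets 10 were tested, 0 were higher and 6 lower in light, the median difference was -1.99, and the medians per series were -2.04, -1.27 and -1.56. The median over all 12 lay between -2.38 and 0.21 on light-phase arrays and between -0.29 and 1.73 on dark-phase arrays. In RNA of whole animals, fewer cells of a type and less RNA per cell cannot be told apart, and the part of embryos in the F-box differences was not tested. In the 24-h test (a cosine and sine of 24 h, moderated F), 0 F-box probe sets passed in LD, where 1% of all did, and 0 passed in the any-hour test, where 0% did; at an unadjusted p under 0.05 there were 55 and 30, or 25.1% and 13.7% of the F-box probe sets against 26.3% and 14.3% of all.

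**Figure D2:**
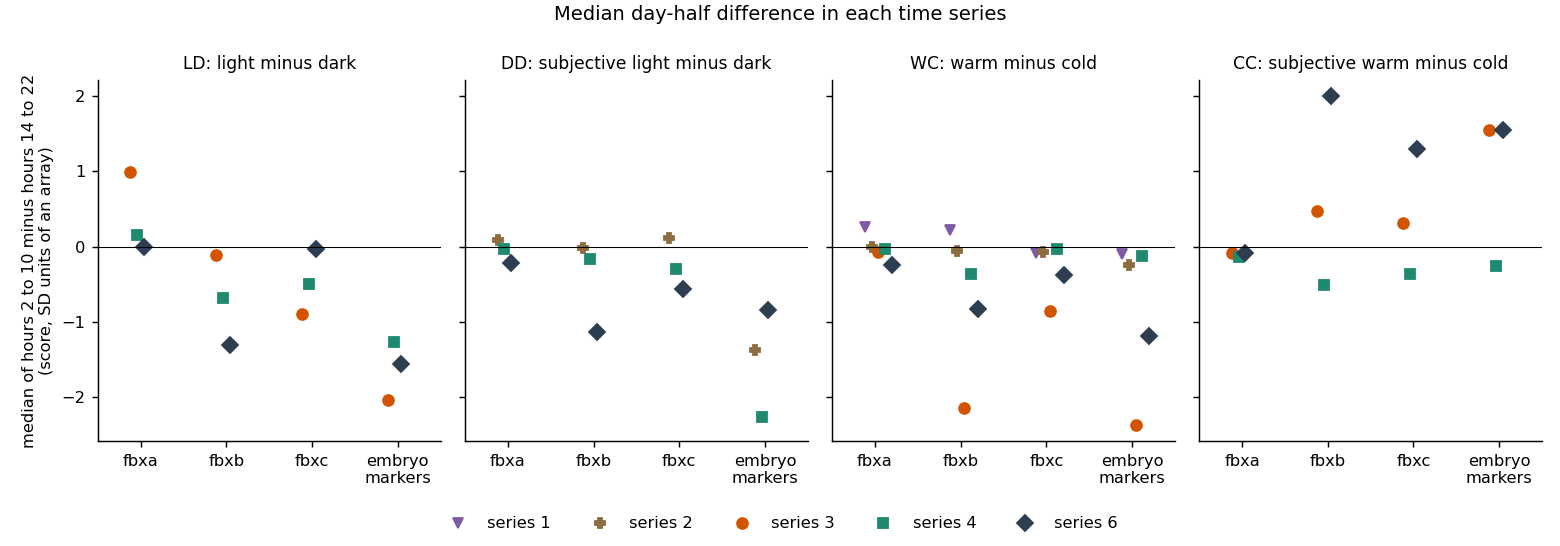
Median over the tested probe sets of each subfamily, and of zygotic embryo markers, of hours 2 to 10 minus hours 14 to 22 (array SD units, vertical axis), 1 point for each time series in LD, DD, WC and CC. The *fbxb* points lie at or below -0.11 in all 3 LD series and between -0.51 and 2.00 in the 3 CC series.

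In DD, no F-box probe set was called in any of the 3 tests (0 by limma in each, where 0% of all probe sets were called). At an unadjusted p under 0.05 there were 16 in the day-half difference, 15 in the 24-h test and 10 in the any-hour test, or 6.93%, 6.49% and 4.33% of the 231 tested, against 15.5%, 13.4% and 7.31% of all probe sets. The 3 lowest p values were those of *fbxa-170* (-1.72 ± 0.33, adjusted p = 0.119), *fbxb-17* (-1.15 ± 0.28, adjusted p = 0.155) and *fbxa-27* (-1.10 ± 0.28, adjusted p = 0.165), each negative in 3 of 3 series. The median differences were -0.11 for *fbxa*, -0.53 for *fbxb* and -0.32 for *fbxc*, beside -0.02 over all probe sets. Embryo markers had a median of -1.51 in DD. The test of LD minus DD in the day-half difference called 0 F-box probe sets, where 0% of all were called, with 34 at an unadjusted p under 0.05 (14.6%, against 10.2% of all), 28 of them *fbxa*, and 7 were called, all higher in LD, without LD series 4.

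The non-entrained controls gave 0 calls in the 3 tests, where 0% of all probe sets were called, with 13, 4 and 9 F-box probe sets at an unadjusted p under 0.05 in the day-half, 24-h and any-hour tests (5.94%, 1.83% and 4.11%, against 3.15%, 2.24% and 2.09% of all). The lowest p values were those of *fbxb-117* (1.31 ± 0.22, adjusted p = 0.740), *fbxb-90* (1.74 ± 0.30, adjusted p = 0.780) and *fbxa-18* (-2.43 ± 0.58, adjusted p = 0.989). With 2 series and 11 arrays, this group allows little. Setting LD against the controls called 0 F-box probe sets, where 0.0877% of all were called higher and 0.117% lower, and 43 had an unadjusted p under 0.05 (18.7%, against 16.6% of all). Setting DD against the controls called 1 lower, *fbxb-117*, where 0.0344% of all were called higher, 0.0401% lower and 0.0745% either way (-1.34 ± 0.16, adjusted p = 0.00289). Its controls had 1 score of 3.57, at hour 6 of series 4, and the other 10 lay between -0.86 and 0.02, while the 18 DD scores lay between -0.26 and 0.34. That hour is represented by 1 control array, so the hours cannot be fitted as separate terms without it. With the 2 phases fitted in place of the hours, *fbxb-117* differed by -0.71 with that array (adjusted p = 0.714) and by 0.0907 without it (adjusted p = 0.891), so the call was lost and, without the array, the direction turned. Without control series 6, 23 F-box probe sets were called for LD and 15 for DD against the controls, and without DD series 4 or 6, 0 were called for DD.

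In WC, 6 F-box probe sets were higher in the warm phase, where 2.08% of all 17342 tested probe sets were called higher, and 7 were lower, where 1.76% were called lower (13 in all, where 3.84% were called either way). Of 122 *fbxa* probe sets 6 were higher and 6 lower, of 82 *fbxb* 0 were higher and 1 lower, and of 36 *fbxc* 0 were called. All calls but 1 were thus *fbxa*. The median warm-minus-cold difference was -0.03 for *fbxa*, -0.64 for *fbxb* and -0.22 for *fbxc*, beside -0.02 over all probe sets. In the 24-h test 19 F-box probe sets passed (15 *fbxa*, 1 *fbxb* and 3 *fbxc*), where 6.29% of all did, and in the any-hour test 5 passed, all *fbxa*, where 2.81% of all did.

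*fbxa-27* had the lowest p in WC. Its 15 warm-phase scores ran between -2.44 and -0.47 (median -0.84) and its 15 cold-phase scores between -1.25 and 3.60 (median 1.05), so the groups overlapped but no warm-phase array was above -0.47. It was lower in the warm phase in all 5 series and fell by 2.11 ± 0.39 (SE, n = 5 series, limma, adjusted p = 0.00327), with a 24-h amplitude of 1.62 and a fitted peak at hour 17.4 (24-h test, adjusted p = 0.00264). *fbxa-27* was also negative in 3 of 3 DD series, without passing the test there. Without series 4 its adjusted p in WC was 0.0502.

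*fbxa-182* had warm-phase scores between -0.95 and 6.29 (median 2.76) and cold-phase scores between -5.80 and 3.96 (median -1.24). It rose by 3.50 ± 0.67 in the warm phase (adjusted p = 0.00386), in 5 of 5 series, and stayed called in the 12 alternatives run on it (highest adjusted p = 0.0430); the alternative without _s_at and _x_at probe sets leaves it out. Its mean scores by hour show a late warm-phase rise: they were -0.62, 3.28 and 4.07 at hours 2, 6 and 10, and -0.16, -1.87 and -1.74 at hours 14, 18 and 22. The probe set is of type _s_at, which can read more than 1 gene of a family. *fbxa-84* was early in the same phase, with means of 3.26, 2.37 and 0.59 at hours 2, 6 and 10 and of -1.27, -1.07 and -0.94 at hours 14, 18 and 22. It rose by 3.16 ± 0.68 (adjusted p = 0.00905), with differences of 0.10 and 1.05 in series 1 and 2 and of 4.17, 4.79 and 5.71 in series 3, 4 and 6.

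**Figure D3:**
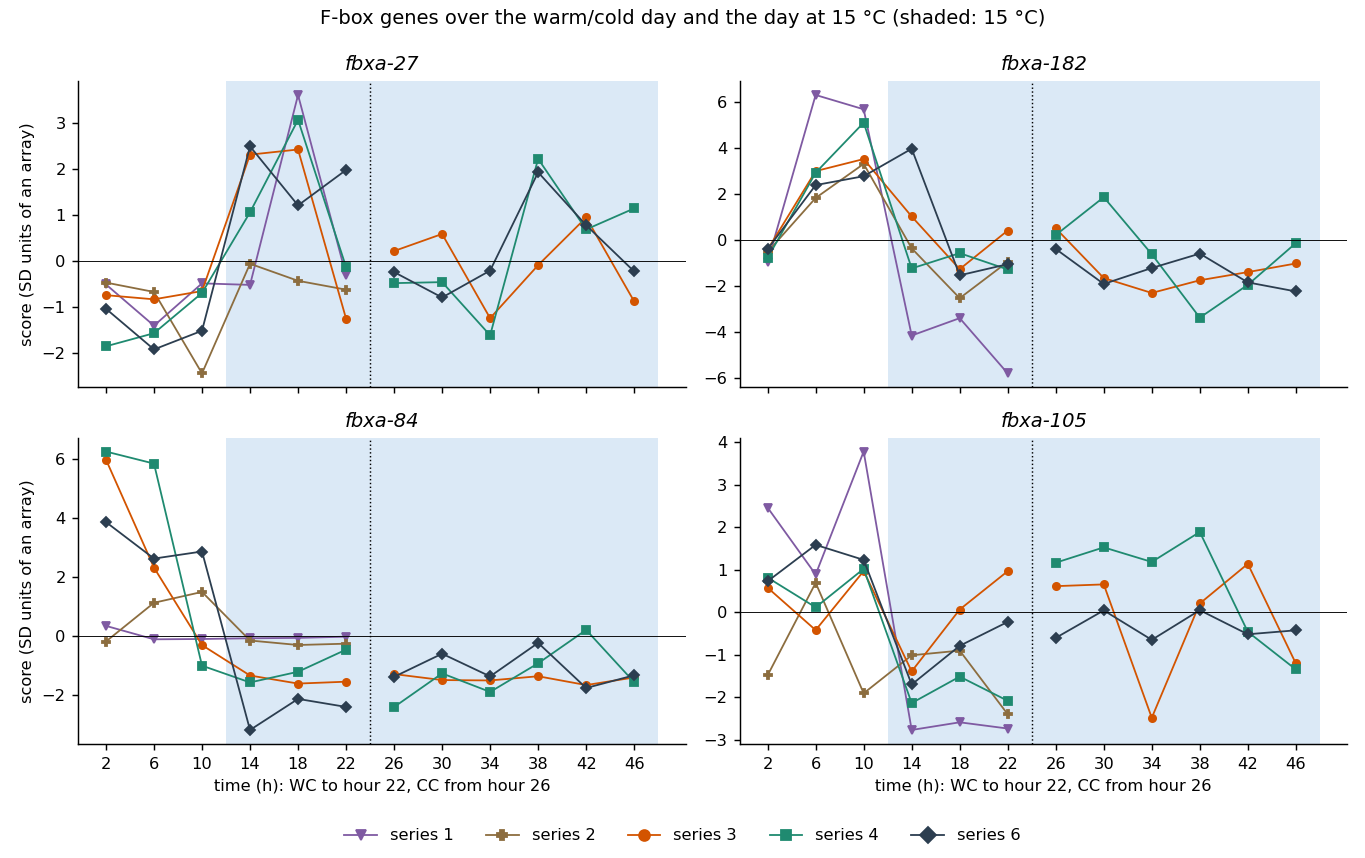
Scores (array SD units, vertical axis) of 4 *fbxa* genes over time in h (horizontal axis), with 1 line for each time series, over the WC day to hour 22 and the CC day from hour 26; blue marks 15°C. *fbxa-27* lies below 0 on all 15 arrays at 25°C, and *fbxa-182* and *fbxa-84* have their highest means at hour 10 (4.07) and hour 2 (3.26).

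*fbxa-105* and *fbxa-51* rose in the warm phase as they did in light. *fbxa-105* differed by 2.15 ± 0.46 and *fbxa-51* by 2.25 ± 0.51, each in 5 of 5 series (adjusted p = 0.00958 and 0.0137). For *fbxa-105*, series 1 had 5.08, against 0.50 to 2.56 in the others. For *fbxa-51*, series 1 had 4.90, against 0.17 to 2.73. Both calls were lost without series 4 or without series 6. For *fbxa-51* the lowest mean was at hour 14, 2 h after cooling, where the 5 series had -5.75, -2.67, -1.04, -1.78 and -2.73. *fbxa-193*, a pseudogene, had the opposite pattern at that hour. It had 3.33, 3.38, 2.23 and 3.37 in series 2, 3, 4 and 6, -0.26 in series 1, and hourly means between -0.34 and 0.22 at all other hours (any-hour test, adjusted p = 0.0270). *fbxa-6* rose by 1.90 ± 0.43 and *fbxa-141* by 1.21 ± 0.32 in the warm phase. *fbxb-42*, the single *fbxb* gene called, fell by 1.73 ± 0.42, lower in 5 of 5 series, with a warm-phase median of -0.87 and a cold-phase median of 0.66.

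The number of WC calls rested on series 3, 4 and 6. It was 4 without series 3, 1 without series 4 and 2 without series 6, but 27 without series 1, of which 21 were lower. In the 24-h test the count was 5, 4 and 4 without series 3, 4 and 6. In the any-hour test it was 0, 0 and 2 without these, and 14 and 9 without series 1 and series 2. The *fbxb* medians were 0.22, -0.06, -2.15, -0.37 and -0.83 in series 1, 2, 3, 4 and 6, and the embryo marker medians were -0.10, -0.24, -2.37, -0.13 and -1.18. Of the 11 embryo marker probe sets tested in WC, 0 were higher and 2 lower, and their part in the *fbxb* values was not tested. Among 3 heat response probe sets, *hsp-70* rose by 3.52 ± 0.82 in the warm phase (adjusted p = 0.0157), and all 3 passed the 24-h test. At hours 2 to 10 in WC (25°C) against CC (15°C), 0 of the 3 were called: *hsp-16.2* had 1.01, *hsp-16.41* 1.23 and *hsp-70* -0.58. In LD, 0 of the 3 were called in the day-half difference. There *hsp-16.2* (2.79 ± 1.23) and *hsp-16.41* (5.82 ± 2.37) were higher in light in 3 of 3 series, and *hsp-70* had 0.55 ± 0.47. The part of a heat response in the F-box differences was not tested.

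In CC, 1 F-box probe set was called, where 0.103% of all were called higher, 0.0607% lower and 0.164% either way. *fbxb-41* had 9 subjective warm-phase scores between -0.12 and 3.04 (median 1.82) and 9 subjective cold-phase scores between -1.04 and 1.73 (median -0.38), and was higher in the subjective warm phase by 2.07 ± 0.32 (SE, n = 3 series, limma, adjusted p = 0.0347). All 3 series had this sign (2.40, 1.55 and 2.26), but the call was lost without any 1 of them. The next lowest p values did not pass: *fbxc-52* differed by 0.85 ± 0.18 (adjusted p = 0.0975) and *fbxa-157* by 2.44 ± 0.67 (adjusted p = 0.158). The 24-h and any-hour tests passed 0 F-box probe sets, where 0.0121% and 0% of all passed, with 20 and 13 at an unadjusted p under 0.05 (8.47% and 5.51%, against 9.79% and 5.34% of all). *fbxb* and *fbxc* had positive medians in CC (0.48 and 0.33) and *fbxa* a negative one (-0.15). Embryo markers had a median of 0.84, with 0 of 11 called. By series, the *fbxb* medians were 0.48, -0.51 and 2.00 and those of the embryo markers 1.55, -0.26 and 1.56 in series 3, 4 and 6.

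Setting the WC difference against the CC difference called 6 F-box probe sets higher in WC, all *fbxa*, where 1.87% of all were called higher. It called 12 lower in WC, where 3.09% of all were called lower and 4.96% either way, and these were 2 *fbxa*, 9 *fbxb* and 1 *fbxc*. *fbxb-41* differed by -1.34 in WC and by 2.07 in CC, and the difference between them was -3.41 ± 0.79 (limma, adjusted p = 0.00985). *fbxb-42* had -1.73 in WC and 1.07 in CC (-2.81 ± 0.67, adjusted p = 0.0120), and *fbxb-103* had -2.21 in WC and 2.08 in CC (-4.29 ± 1.09, adjusted p = 0.0184). *fbxa-84*, with 3.16 in WC and -0.35 in CC, went the other way (3.52 ± 0.94, adjusted p = 0.0255). *fbxa-158*, the CUL-6 partner named above, had -1.24 in WC and 3.76 in CC (-5.003 ± 1.29, adjusted p = 0.0205). The count was 1 without WC series 3, 10 without WC series 4, 4 without WC series 6 and 1 without CC series 6.

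Hours 2 to 10 were spent at 25°C in WC and, a day later, at 15°C in CC, and both days were compared within series 3, 4 and 6. Among F-box probe sets as among all probe sets, this comparison had the most calls of those within the temperature experiment. At 25°C in WC, 22 of 239 F-box probe sets (9.21%) were higher than in CC, where 13.5% of all were called higher. Lower in WC were 46 (19.2%), where 16.7% of all were called lower and 30.2% either way. Of 120 *fbxa* probe sets 21 were higher and 7 lower. Of 85 *fbxb* probe sets 1 was higher and 26 lower, and of 34 *fbxc* probe sets 0 were higher and 13 lower. The medians were 0.26, -1.38 and -1.57 for *fbxa*, *fbxb* and *fbxc*, beside 0.04 over all probe sets. Temperature and the day between the samplings cannot be told apart here.

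*fbxa-84* had 9 scores between -1.01 and 6.27 (median 2.87) in WC and 9 between -2.42 and -0.60 (median -1.39) in CC at these hours. Its difference was 4.64 ± 0.51 (SE, n = 3 series, limma, adjusted p = 7.96e-07), and hour 10 of series 4 was the WC array lowest in it. *fbxc-39* had scores between -3.74 and -0.86 in WC and between 2.05 and 6.21 in CC, which did not overlap (-6.56 ± 1.04, adjusted p = 4.50e-05). *fbxb-103* did not overlap either, with -6.98 to -0.76 in WC and -0.67 to 5.49 in CC (-6.03 ± 0.95, adjusted p = 4.52e-05). *fbxc-20* (-5.19 ± 0.79) and *fbxc-51* (-2.74 ± 0.43) were lower in WC in all 3 series. In all, 53 of the 68 calls had 1 sign in all 3 series.

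**Figure D4:**
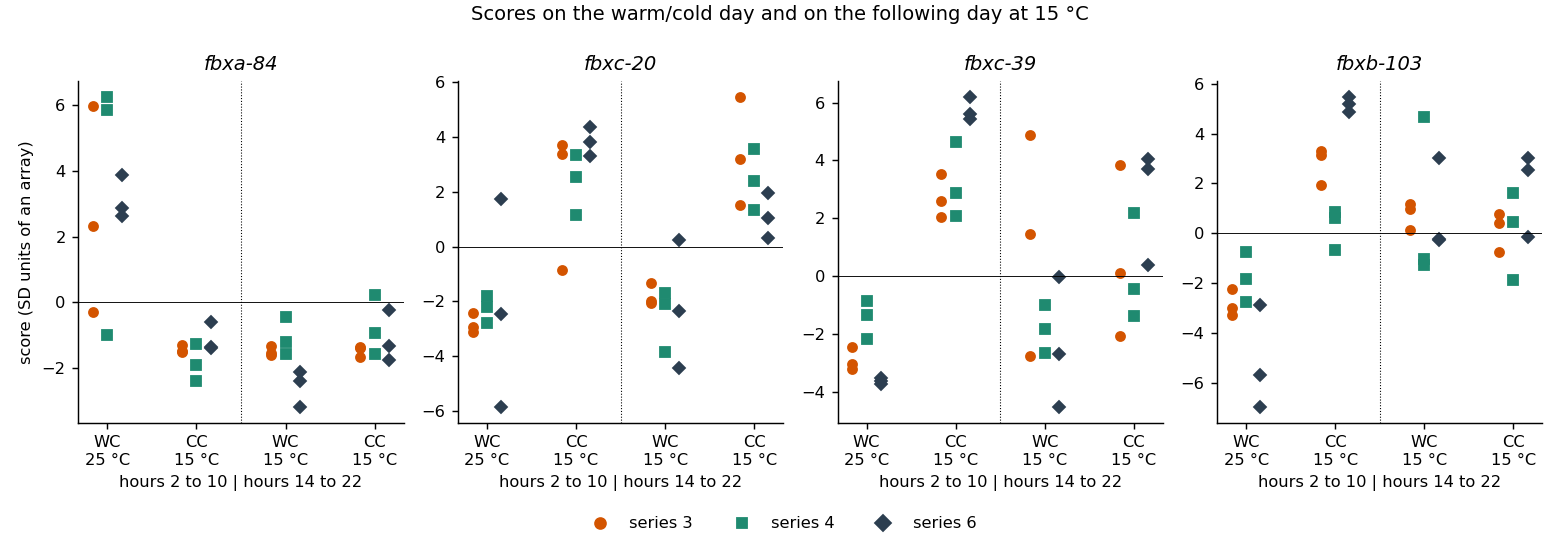
Scores (array SD units, vertical axis) of *fbxa-84*, *fbxc-20*, *fbxc-39* and *fbxb-103* in WC beside CC, at hours 2 to 10 (25°C in WC, 15°C in CC) and at hours 14 to 22 (15°C in both), 3 arrays for each of series 3, 4 and 6. At hours 2 to 10 the 9 WC scores of *fbxc-39* (highest -0.86) and *fbxb-103* (highest -0.76) lie below all 9 CC scores.

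The lower *fbxb* and *fbxc* scores at 25°C came from 2 of the 3 series. The *fbxb* median was -2.22 in series 3, 0.16 in series 4 and -2.44 in series 6, and the *fbxc* median was -2.23, 0.09 and -2.13. Without series 3 the calls were 18 higher and 20 lower, and without series 6 they were 8 higher and 15 lower. Embryo markers were lower too, with 1 of 11 higher and 7 lower, a median of -2.13, and -3.71, -0.71 and -2.43 by series. Their median over all 12 probe sets lay between -1.55 and -0.05 on WC arrays and between -0.49 and 2.41 on CC arrays at these hours. Oocyte and eggshell markers had 0 of 20 higher and 7 lower, and sperm markers 5 of 8 higher and 0 lower. Their part in the F-box differences was not tested.

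At hours 14 to 22, when animals were at 15°C in both WC and CC, 20 F-box probe sets were higher in WC, where 8.09% of all were called higher, and 13 were lower, where 6.15% were called lower and 14.2% either way. *fbxa* and *fbxb* did not part as at hours 2 to 10: *fbxa* had 11 higher and 5 lower, and *fbxb* 8 higher and 4 lower. *fbxc* had 1 higher and 4 lower. The medians were 0.13, 0.13 and -0.41 for *fbxa*, *fbxb* and *fbxc*, beside 0.03 over all probe sets. The *fbxc* median was negative in all 3 series (-0.54, -0.19 and -0.42 in series 3, 4 and 6). Embryo markers had 0 higher and 0 lower of 11, with a median of 0.03. *fbxb-101* had the lowest p, with WC scores between -6.58 and -1.95 (median -3.32) and CC scores between -2.09 and 4.18 (median 2.75), a difference of -5.88 ± 0.96 (SE, n = 3 series, limma, adjusted p = 2.14e-04). *fbxc-20* was lower in WC at these hours as well (-4.49 ± 0.79), and its WC scores, at most 0.25, lay below all its CC scores, at least 0.30. *fbxc-19* (2.89 ± 0.53), *fbxa-74* (3.39 ± 0.63) and *fbxa-193* (1.41 ± 0.26) were higher in WC. All 33 calls had 1 sign in all 3 series, and 7 were called without series 6, 17 without series 3.

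The LD day was set against the DD day within series 4 and 6. In LD, 66 of 222 F-box probe sets were higher than in DD, where 25.1% of all were called higher, and 17 were lower, where 20.5% were called lower and 45.6% either way. *fbxa* had 43 higher and 1 lower of 113, *fbxb* 17 higher and 8 lower of 76, and *fbxc* 6 higher and 8 lower of 33. The *fbxa* median was 0.63, and it was 0.50 in series 4 and 0.80 in series 6, beside 0.13 over all probe sets. *fbxb-49* had 12 LD scores between -3.82 and 7.51 (median 4.97) and 12 DD scores between -6.14 and -1.44 (median -3.18). Its difference of 7.38 ± 0.87 (SE, n = 2 series, limma, adjusted p = 3.97e-05) was 8.40 in series 4 and 6.36 in series 6, and 2 LD arrays of series 6, hours 2 and 10, lay below 0. *fbxb-46* (5.90 ± 0.85), *fbxa-106* (3.05 ± 0.44) and *fbxa-65* (2.40 ± 0.32) were also higher in LD. *fbxc-52* was lower (-2.15 ± 0.31). Embryo markers had 1 higher and 7 lower of 10, with a median of -1.62, and -1.04 and -2.30 in series 4 and 6. The *fbxb* median was 0.24, with 0.54 and -0.07 in these series, and the *fbxc* median -0.04, with 0.16 and -0.11. Oocyte and eggshell markers had 7 higher and 3 lower of 20, and the part of these markers in the F-box differences was not tested. Of the 83 calls, 82 had the same sign in both series. Light and the day between the samplings cannot be told apart. With hour and day as the only terms, 85 F-box probe sets were called over both series, 54 in series 4 alone and 62 in series 6 alone, and of the 5 genes named here *fbxb-46* lost its call in series 6 alone (adjusted p = 0.120).

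Some *fbxa* genes had differences of opposite sign in the temperature and light cycles, but only *fbxa-162* was called in both with opposite signs. Setting WC against LD called 1 of 240 F-box probe sets higher in WC (0.417%) and 10 lower (4.17%). Of all probe sets, 1.21% were called higher, 4.11% lower and 5.32% either way. All 11 called F-box probe sets were *fbxa*, whose 122 tested members had a median of -0.50. *fbxa-162* had warm-phase scores between -3.91 and 2.35 (median -1.18) and cold-phase scores between -0.27 and 4.43 (median 1.20). In LD its light-phase scores ran between 0.23 and 6.07 (median 1.96) and its dark-phase scores between -5.79 and 0.42 (median -0.70). It thus fell by 2.17 ± 0.46 in the warm phase (adjusted p = 0.00879, lower in 4 of 5 series) and rose by 3.89 ± 1.13 in light (adjusted p = 0.0475, higher in 3 of 3). The difference between the cycles was -6.06 ± 1.07 (limma, adjusted p = 0.00107), and its adjusted p was at most 0.0299 under the alternatives. *fbxa-74* differed by -2.13 in WC and by 6.01 in LD, where it did not pass the test. In LD, series 3 had 13.93 and series 4 and 6 had 1.90 and 2.20. The cycles differed by -8.14 ± 1.52 for *fbxa-74* (limma, adjusted p = 0.00168). *fbxa-59*, with -0.75 in WC and 3.60 in LD, differed by -4.36 ± 0.99 (adjusted p = 0.00823), a call lost without LD series 3. Leaving out LD series 3 gave 2 calls in place of 11, leaving out LD series 4 gave 20, and leaving out WC series 1 gave 18. Within WC, the call of *fbxa-162* was lost without series 3, 4 or 6 and with the 2 phases fitted in place of the hours (highest adjusted p = 0.0958).

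*fbxa-162* stands in a group of 9 neighbouring *fbxa* genes on chromosome II, *fbxa-158* to *fbxa-166*. *fbxa-163* and *fbxa-164* of this group also had differences of opposite sign in the cycles, of which those in LD did not pass the test (adjusted p = 0.0762 for *fbxa-163* and 0.131 for *fbxa-164*). *fbxa-163* had warm-phase scores between -7.82 and 3.92 (median -2.83) and cold-phase scores between -3.93 and 5.72 (median 0.77), and series 1 alone had a positive difference (1.33, against -5.76, -5.84, -2.53 and -5.75 in series 2, 3, 4 and 6). It differed by -3.71 ± 0.95 in WC and 2.44 ± 0.85 in LD, and by -6.15 ± 1.44 between them (adjusted p = 0.0104). *fbxa-164* had -1.76 ± 0.46 in WC and 2.24 ± 0.96 in LD, and -4.01 ± 0.96 between them (adjusted p = 0.0121). Both calls were lost when LD series 3 or LD series 6 was left out. *fbxa-158* and *fbxa-161*, in the same group, had -1.24 and -1.08 in WC and 1.40 and 0.56 in LD, without passing either test. For *fbxa-161* the WC value came from series 6 (-5.17), with -0.59 to 0.20 in the other 4 series. For *fbxa-158*, series 1 had 3.81 in WC, against -3.74 to -0.93 in the other 4 series. *fbxa-162* is annotated as a pseudogene, and transcripts of near-identical neighbours may share probes, so values within the group are not independent.

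**Figure D5:**
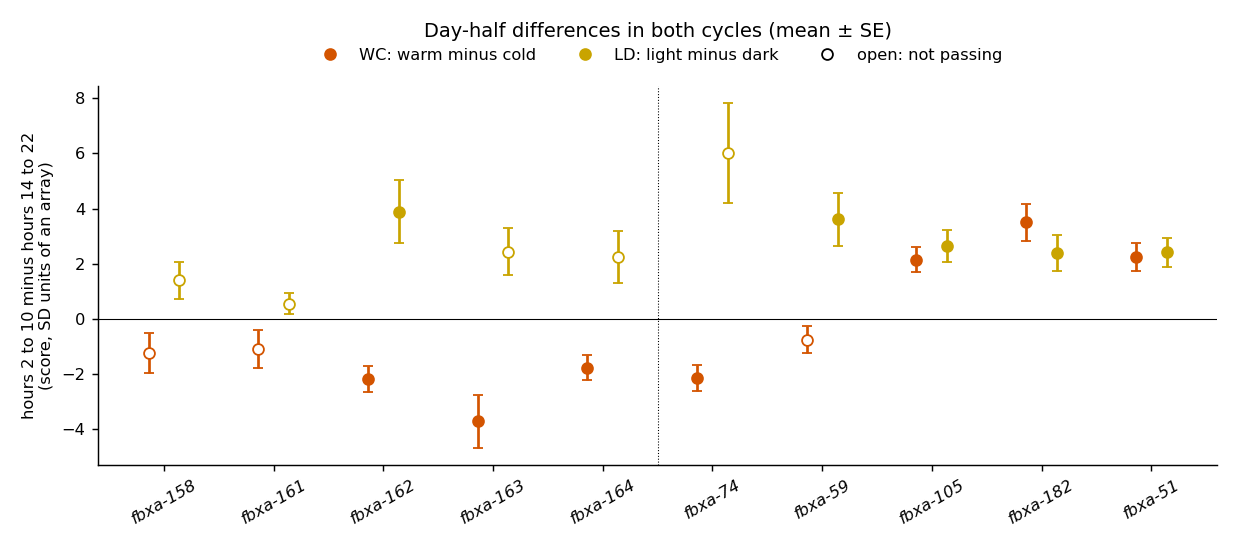
Day-half difference (array SD units, vertical axis; error bars are SE; 5 series in WC and 3 in LD) of 5 genes of the chromosome II group and of 5 other *fbxa* genes, with warm minus cold phase left and light minus dark phase right for each gene. Filled points passed an adjusted p under 0.05: *fbxa-162* has -2.17 in WC and 3.89 in LD, while *fbxa-105*, *fbxa-182* and *fbxa-51* are positive in both.

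LD and WC share no arrays, and 4 F-box probe sets were called in both, of 21 called in LD and 13 called in WC. That is 1.84% of the 217 F-box probe sets tested in both, where 0.868% of all 15546 probe sets were (135, of which 93 had the same direction). *fbxa-105*, *fbxa-51* and *fbxa-182* had the same direction (*fbxa-182* rose by 2.39 ± 0.66 in light), and *fbxa-162* had opposite directions. None of the 4 LD calls held without LD series 3 or without LD series 6.

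The correlation between F-box genes was higher at the median for neighbours than for genes on different chromosomes. With series means removed, the median correlation over arrays between F-box probe sets with at most 2 genes between them was 0.28 in LD (134 pairs, 18 arrays), 0.27 in DD (159 pairs, 18 arrays), 0.24 in WC (167 pairs, 30 arrays), 0.37 in CC (166 pairs, 18 arrays) and 0.08 in the controls (122 pairs, 11 arrays). Farther apart on 1 chromosome it was 0.09, 0.10, 0.13, 0.19 and 0.05 in the same order, and on different chromosomes 0.03, 0.07, 0.08, 0.12 and 0.02. These are descriptions over pairs that share arrays and in part sequence. In WC, *fbxa-162* and *fbxa-163* correlated at 0.79. Of 7 genes with 2 probe sets, the 2 correlated over the 95 arrays at 0.98 for *fbxa-136* and 0.94 for *fbxa-214*, but at 0.03 for *fbxa-150* and 0.04 for *fbxc-50*. In both of these genes 1 probe set stayed close to the floor, at a mean distance of 0.02 for *fbxa-150* and 0.05 for *fbxc-50*.

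The partners of F-box proteins were read from lists called SCF genes here (cullins, SKR adaptors, RBX proteins and other F-box proteins) and intracellular pathogen response genes. The first list took *cul-1* to *cul-6*, *rbx-1* and *rbx-2* without regard to the ligase they form, so its counts are not of SCF genes alone. In LD, 3 of 49 tested SCF probe sets were higher in light and 7 lower, where 6.24% and 5.26% of all were. *dre-1*, an F-box gene of developmental timing outside the 3 subfamilies, rose by 1.21 ± 0.16 and 1.17 ± 0.17 at its 2 probe sets (adjusted p = 0.00892 and 0.00987). The adaptor genes *skr-14* and *skr-7* fell by 0.81 ± 0.20 and 1.18 ± 0.30. In WC, 0 were higher in the warm phase and 3 lower, where 2.08% and 1.76% of all were: *cul-1*, the core cullin of SCF complexes, fell by 0.84 ± 0.17 at 1 of its 2 probe sets (adjusted p = 0.00694, lower in 4 of 5 series), *skr-15* by 1.09 ± 0.24 and *skr-5* by 3.42 ± 0.53 (adjusted p = 7.44e-04, lower in 5 of 5 series). *skr-5* rose by 2.60 ± 0.73 in light (adjusted p = 0.0423, higher in 3 of 3 series). The cycles differed by -6.01 ± 0.90 for *skr-5* (adjusted p = 2.02e-04), a test chosen after its values had been seen. At 25°C in WC against 15°C in CC, 1 of 49 SCF probe sets was higher and 23 were lower (median -0.58, beside 0.04 over all), where 13.5% and 16.7% of all were. In LD against DD 6 were higher and 21 lower, where 25.1% and 20.5% of all were. Embryo markers were mostly lower in both comparisons (7 of 11 and 7 of 10 lower), and their part in the SCF values was not tested.

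Of 27 intracellular pathogen response probe sets, 21 were tested in LD, where 2 were higher in light and 0 lower. These were *skr-5* and *pals-23*, which rose by 1.48 ± 0.38 (adjusted p = 0.0350). The list took genes of the pals family by name, with *cul-6*, *skr-3*, *skr-4* and *skr-5*. Induction of each gene in the response was not a criterion. In WC, 0 of 20 were higher in the warm phase and 1, *skr-5*, was lower. *cul-6* had -0.93 ± 0.46 in WC and 1.02 ± 0.50 in LD, passing neither test, and *skr-3* and *skr-4* had 0.83 ± 0.28 and 1.12 ± 0.38 in LD (adjusted p = 0.0700 each). At hours 2 to 10, 0 of 21 were higher in WC at 25°C than in CC at 15°C, and 8 were lower, where 13.5% and 16.7% of all were, with a median of -0.70. The embryo markers had 7 of 11 lower and a median of -2.13 there, and their part was not tested. At hours 14 to 22, 0 were called either way.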

How the data were processed

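Affymetrix *C. elegans* arrays gave 1 table of 22625 probe sets on 95 arrays. The authors computed log2 values with GCRMA in R 2.7.1, took them relative to the mean of a time series and standardised each array, so the deposited values are scores (mean 0, variance 1 per array), with 1 missing. In the scores, both days of a series were centred together in light series 4 and 6 and in temperature series 3, 4 and 6; WC series 2 showed no such set. The arrays' spread before standardisation differed within a set by 1.45 to 2.91 times. There is no read depth, and the number of arrays limits the precision.

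Here 77 array controls were left out. The floor of an array is the median of the densest 5% of its scores, and probe sets within 0.1 of it were left out per condition. limma 3.58.1 in R 4.3.3 was fitted to all remaining probe sets with the time series as a block, p values were adjusted by Benjamini-Hochberg, and figures were drawn in Python. The labels give each array its experiment number, which pairs arrays across hours and days; since scores are centred per series, no correlation of deviations can check this. Tests were tried on simulated data. 5 arrays stand for 2 biological replicates by their labels.

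The rule for members used gene symbols alone, but the rule, the gene lists and the filter were chosen with earlier results of these data known. Per condition, named genes are F-box probe sets called with 1 sign in all series, up to 10 by lowest p, up to 5 each called in the 24-h and any-hour tests, up to 5 per comparison, the 3 lowest p where fewer than 3 were called, those farthest from the floor and neighbours. Lists were SCF genes, pathogen response genes, embryo, oocyte and eggshell, sperm and heat genes. Chromosome and neighbours are from RefSeq (WBcel235), whose coordinates are not used. Alternatives covered filters, scaling, block, trend and left-out series.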

Additional observations from a re-analysis of the deposited data

Results flagged for a closer look

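Some F-box genes had day-half differences (hours 2 to 10 minus hours 14 to 22) that differed between conditions by a test of the difference itself (limma, adjusted p under 0.05). Between WC and CC these were *fbxb-41* (-3.41), *fbxb-42* (-2.81), *fbxb-103* (-4.29) and *fbxa-158* (-5.003), lower in WC, and *fbxa-84* (3.52), higher in WC. Between WC and LD they were *fbxa-162* (-6.06), *fbxa-74* (-8.14), *fbxa-59* (-4.36), *fbxa-163* (-6.15) and *fbxa-164* (-4.01), all lower in WC. *fbxb-117* differed between DD and the controls (-1.34). Of its 11 control scores 1 was 3.57 and the others lay between -0.86 and 0.02. With the 2 phases in place of the hours, *fbxb-117* did not pass. The 5 WC series were also searched for 1 far from the other 4, in the day-half difference of 18 named genes, of the 3 subfamily medians, of the embryo markers and of all probe sets, and in the hours of *fbxa-182*, *fbxa-84*, *fbxa-51* and *fbxa-193*. Of 47 such groups 4 held one, and chance alone gives about 1 in 20. *fbxa-161* had -5.17 in series 6 against -0.59 to 0.20 in the others. *fbxa-182* had 6.29 in series 1 at hour 6 against 1.82 to 2.99 in the others, and -5.80 in series 1 at hour 22 against -1.29 to 0.40. *fbxa-193* had 1.39 in series 6 at hour 18 against -0.68 to -0.14.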

How the results depend on the processing

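Directions of the named F-box genes did not reverse under the alternatives run, except that of *fbxb-117* for DD against controls, which was 0.0907 with the 2 phases in place of the hours and hour 6 of control series 4 left out. With 1 series left out, the count in the day-half difference was 0 to 7 in LD (21 with all), 1 to 27 in WC (13) and 0 in CC (1). It was 4 to 24 (19) in the WC 24-h test and 0 to 14 (5) in the WC any-hour test. It was 1 to 19 (18) for WC against CC, 0 to 7 (0) for LD against DD, 0 to 23 (0) for LD against controls, 0 to 15 (1) for DD against controls, and 2 to 20 (11) for WC against LD. It was 23 to 84 (68) for WC minus CC at hours 2 to 10 and 7 to 25 (33) at hours 14 to 22. Of 222 named values with 1 series left out, 84 lost their call and 1 gained one. The 23 and the 15 arose without control series 6, where the lone control series was assumed to vary like the other condition. The cause of these shifts was not tested, beyond the smaller number of arrays.

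Without the filter on low scores the counts were 6 in LD, 0 in CC, 9 for WC against CC and 181 for LD minus DD, with more probe sets tested. With the stricter filter, 3 passed the 24-h test in LD. Without the replicate block (the time series as a term, which pairs arrays of 1 experiment) the counts were 8 in the WC any-hour test, 0 in CC and 0 for DD against controls, and no other count of calls moved by over 1.5 times. Without the arrays that stand for 2 biological replicates, they were 5 in LD and 0 in CC. Restoring each array's spread before standardisation gave 8 in LD. A fit with the 2 phases in place of the hours gave 34 in LD, a linear trend over the day gave 2 in the WC 24-h test, and leaving out _s_at and _x_at probe sets gave 0 in CC. Without hour 18 of control series 4, 3 were called for LD against controls and 2 for DD against controls. The cause was not tested. With the 2 phases in place of the hours, 0 were called for DD against controls, with or without hour 6 of control series 4, and 2 with control series 6 as the only control. With hour and day terms, LD minus DD gave 54 in series 4 alone. The restored spread, the hour 6 and hour 18 arrays, the 2-phase fits against the controls and of 1 control series, and the hour and day terms were chosen after seeing the data. With hours as separate terms, LD minus DD with 1 series, the day-half and any-hour tests of the controls with 1 series and the differences from the controls without control series 4 were not fitted. How far scores carry real change is limited by the floor, which held 53 F-box probe sets in all conditions.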

Other observations

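In each of the 5 conditions, some probe sets of F-box genes annotated as pseudogenes passed the filter on low scores. Whether their scores come from related transcripts was not tested. Of 49 pseudogene probe sets 37 were tested in WC (75.5%), and of 268 protein-coding ones 203 (75.7%). The share of pseudogene probe sets tested was 69.4% in LD, DD and CC alike, against 69.0%, 73.5% and 75.4% of protein-coding ones in these conditions. In the controls the shares were 61.2% and 70.5%. Of the tested pseudogene probe sets, 2 were higher and 0 lower in light, and of the protein-coding ones 10 were higher and 9 lower, where 6.24% and 5.26% of all probe sets were. In the warm phase 0 pseudogene probe sets were higher and 1 lower, and 6 protein-coding ones were higher and 6 lower, where 2.08% and 1.76% of all were. Whether the gene types differ was not tested.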
